A study of Mus musculus with 12 samples.

Results

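The genes described are 9 members of the PARP family (Parp1, Parp2, Parp3, Parp8, Parp9, Parp10, Parp11, Parp12 and Parp14) and Dtx3l, taken by gene symbol from a table of 15721 genes, in which each of the 10 has 1 row. They were read in mouse peritoneal macrophages sorted by FACS. Strand-specific libraries of poly-A RNA, 12 in all, came from C57BL/6 mice of 4 genotypes with 3 libraries each. WT mice carried no labelled mutation, and Samhd1 KO mice were labelled as knockouts of Samhd1, which encodes an enzyme that breaks down deoxynucleotides. Samhd1 Cardif dKO mice were labelled as lacking Samhd1 together with Cardif (MAVS), through which MDA5 and RIG-I signal when they bind RNA, and Samhd1 Sting dKO mice as lacking Samhd1 together with STING, through which cGAS signals when it binds DNA. Both double knockouts are therefore labelled as lacking Samhd1 as well, and no treatment is labelled for any group. The labelled age, whose unit is not given, was 16 for all WT libraries, 19, 18 and 16 for Samhd1 KO, 18, 18 and 16 for Samhd1 Cardif dKO, and for Samhd1 Sting dKO it was 24, 16 and 18. The mice were female except that of Samhd1 Cardif dKO replicate 1. The labels do not say how the alleles were made or, in words, whether the 3 libraries of a group came from separate mice. Labelled age or sex differs between the 3 libraries of each knockout group, whereas the 3 WT libraries share both. A p-value measures the spread between libraries, which for WT may be technical.

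PARP enzymes transfer ADP-ribose from NAD onto proteins, either as a single unit or as long chains. PARP1, PARP2 and PARP3 act at DNA strand breaks and are made in most cells, whereas PARP9, PARP10, PARP11, PARP12 and PARP14 are products of interferon-stimulated genes, and most of them attach single ADP-ribose units. DTX3L, an E3 ubiquitin ligase of the Deltex family, binds PARP9, and the Dtx3l and Parp9 genes lie head to head beside Parp14. In macrophages type I interferon acts through its receptor, JAK kinases and a complex with STAT2 and IRF9, which binds interferon-stimulated response elements (ISRE), while interferon gamma acts mainly through gamma-activated sequences (GAS). Parp9, Parp10, Parp11, Parp12, Parp14 and Dtx3l are called the interferon-induced members below, and Parp1, Parp2, Parp3 and Parp8 the other members.

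Values are normalized reads, that is reads per gene divided by 1 size factor per library. Recovered depth ran from 18884021 to 32204657 reads per library, and no library gave any of the 10 genes fewer than 286 reads. All 8 macrophage markers checked, Lyz2 and Csf1r among them, were read in every library; they summed to 1258777 to 1370346 in WT and 933666 to 1116177 in Samhd1 KO, with 882923 to 1259868 for Samhd1 Cardif dKO and 1174148 to 1245466 for Samhd1 Sting dKO. T and NK cell markers summed to at most 18.0 normalized reads. Samhd1 averaged 10761 in WT and 6519.5 in Samhd1 KO, and stood lower still in Samhd1 Cardif dKO (3613) and Samhd1 Sting dKO (3683). Its reads were thus lower than in WT in the libraries labelled Samhd1 KO but not absent. The groups did not overlap, but the call of this difference (log2 -0.74, limma adjusted p = 0.0305) was lost without any 1 of the 3 WT libraries or Samhd1 KO replicates 1 and 3, with adjusted p from 0.0668 to 0.112. Mavs averaged 518 in Samhd1 Cardif dKO against 859 to 911 in the other groups. Tmem173, which encodes STING, averaged 551 in Samhd1 Sting dKO and 522 in WT, so its reads do not check the Sting label. Its means were 735 in Samhd1 KO and 614 in Samhd1 Cardif dKO. It was called higher in Samhd1 KO than in WT (log2 0.49, limma adjusted p = 0.00873). In Samhd1 Sting dKO it was called lower than in Samhd1 KO (log2 -0.41, limma adjusted p = 0.0149). The summed level of 8 B cell markers ran from 664 to 1103 in WT and from 308 to 569 in Samhd1 KO. The Samhd1 Cardif dKO libraries ranged from 412 to 1041 for these markers, those of Samhd1 Sting dKO from 1615 to 3702. The 6 mast cell markers summed to 85.0 to 263 in WT and 7.23 to 9.89 in Samhd1 KO, with 37.1 to 62.5 for Samhd1 Cardif dKO and 35.8 to 521 for Samhd1 Sting dKO. The 8 genes of cycling cells summed to 1339.98 to 8627 in WT and 3174 to 13390.1 in Samhd1 KO, with 5338 to 22923 for Samhd1 Cardif dKO and 1038 to 2956 for Samhd1 Sting dKO. In such bulk samples a change in the share of a cell type and a change in RNA per cell cannot be told apart.

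All 10 genes passed the filter on low values. Divided by the deposited transcript length, Parp2 had the highest level per kilobase, with a mean of 583 normalized reads per kb over the 12 libraries, followed by Parp14 at 423, Parp1 at 412, Parp12 at 388, Dtx3l at 305, Parp3 at 274, Parp10 at 256, Parp9 at 222, Parp8 at 151 and Parp11 at 115. Levels of neighbours in this order overlapped between libraries in every case. Per kilobase, Parp14 ran from 269 to 671 across libraries, and the narrower range of Parp1, from 343 to 522, lay within it. Across libraries the highest normalized level was 2.74 times the lowest for Parp9, 2.59 times for Dtx3l, 2.50 times for Parp14 and 2.08 times for Parp12, but 1.23 times for Parp2, 1.44 times for Parp3 and 1.52 times for Parp1. Parp8 also ranged widely, by 2.10 times, and in Samhd1 Cardif dKO alone it ran from 293 to 585.

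**Figure D1:**
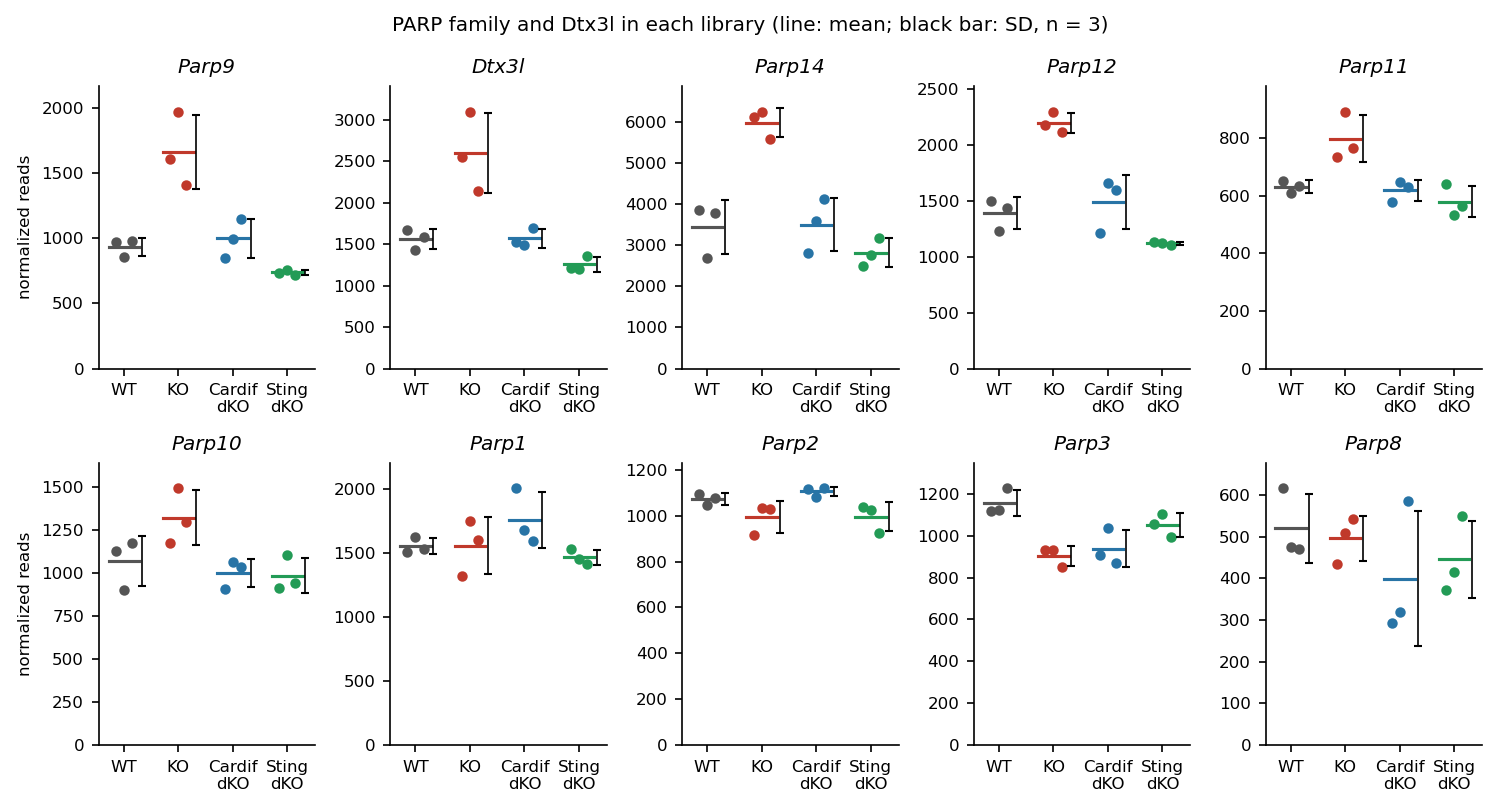
Normalized reads of the 10 genes in each of the 12 libraries, 1 panel a gene with its axis from 0, points for libraries, coloured lines for the group mean and black bars for the SD (n = 3). The 3 Samhd1 KO points lie above all WT points for the 6 interferon-induced genes in the first 6 panels, and groups intermix for Parp1 and Parp8.

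The promoters were read for the 2 motifs through which interferon signals, to show the sequences that stand beside these levels. RefSeq windows on GRCm38.p6 from 250 bases upstream to 50 bases downstream of the start site were at hand for 7 of the 10 genes, in 8 windows; those of Parp9, Parp10 and Parp14 were not analysed here. The ISRE core searched was GAAA, any 2 bases and GAAA again, and the GAS core TTCNNNGAA, on both strands. Of 32851 such windows, 3.44% hold the ISRE core and 8.30% the GAS core. Of the 8 windows, 1 held either: the first of both Parp11 windows had an ISRE core, on the reverse strand, from 44 bases upstream of the start site, and a GAS core from 37 bases upstream, the pair sharing 3 bases. The windows of Parp12, Dtx3l, Parp1, Parp2, Parp3 and Parp8 and the second Parp11 window held neither. The 250 bases upstream of the start site are printed for Parp11 (chr6:127446590-127446839, forward strand) because they carry both motifs, and for Parp12 (chr6:39118350-39118599, reverse strand) and Parp1 (chr1:180568641-180568890, forward strand) as 1 interferon-induced and 1 other member with neither; capitals mark the 2 overlapping cores, which read TTTCGATTTC and TTCTTGGAA.
Parp11: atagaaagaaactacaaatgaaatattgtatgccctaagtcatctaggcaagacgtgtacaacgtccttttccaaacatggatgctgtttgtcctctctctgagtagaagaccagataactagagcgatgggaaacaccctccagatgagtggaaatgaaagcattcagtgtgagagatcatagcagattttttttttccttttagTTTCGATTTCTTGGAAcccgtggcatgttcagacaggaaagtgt
Parp12: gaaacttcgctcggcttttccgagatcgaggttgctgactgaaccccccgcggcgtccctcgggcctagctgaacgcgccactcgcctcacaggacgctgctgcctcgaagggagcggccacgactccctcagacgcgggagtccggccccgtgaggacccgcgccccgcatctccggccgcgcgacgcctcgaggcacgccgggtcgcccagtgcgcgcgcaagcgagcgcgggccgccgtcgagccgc
Parp1: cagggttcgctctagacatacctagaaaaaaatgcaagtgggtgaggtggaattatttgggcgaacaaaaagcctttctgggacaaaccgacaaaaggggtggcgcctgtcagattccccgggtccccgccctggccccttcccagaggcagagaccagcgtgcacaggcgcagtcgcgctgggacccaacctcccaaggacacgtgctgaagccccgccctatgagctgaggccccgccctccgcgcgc
A match is a description of these letters, and its absence says only that the letters are not in the window.

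Samhd1 KO was compared with WT first, where the genotype labels differ in Samhd1 alone. Of the 6 interferon-induced members, 4 were called higher by limma at an adjusted p under 0.05, in a comparison where 2.71% of the 13231 genes tested were called higher. Their median log2 fold change was 0.69, against 0.00 over all genes tested. All 6 had every Samhd1 KO library above every WT library, as 13.8% of all genes did. Of the other 4 members, 1 was called lower, where 1.62% of all genes were, and their median was -0.09.

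Parp9 (ENSMUSG00000022906), the partner of DTX3L, had 971, 853 and 978 normalized reads in the WT libraries, and the Samhd1 KO libraries had 1607, 1971 and 1411. Every Samhd1 KO library was high, replicate 2 most, and the groups did not overlap. The log2 fold change was 0.82 (SE 0.128, limma adjusted p = 0.00649). Dtx3l (ENSMUSG00000049502), the ubiquitin ligase, had 1674, 1430.1 and 1582 in WT and 2553, 3099 and 2147 in Samhd1 KO. Its libraries had the same order as those of Parp9 in Samhd1 KO, again with no overlap. It rose by log2 0.72 (SE 0.119, limma adjusted p = 0.00831). Parp14 (ENSMUSG00000034422), known in mice as a macrodomain cofactor of STAT6, had the most reads of the 10 genes, with 3860.3, 2691 and 3779.8 in WT and 6114, 6243 and 5568 in Samhd1 KO. WT replicate 2 was the lowest library of its group, as for Parp9, Dtx3l and Parp12, and no WT library reached the Samhd1 KO range. Its log2 fold change was 0.81 (SE 0.158, limma adjusted p = 0.0158). Parp12 (ENSMUSG00000038507), a zinc finger PARP with antiviral activity, stood at 1502, 1228 and 1433 in WT and at 2181, 2298 and 2117 in Samhd1 KO. Its Samhd1 KO libraries lay close together and well above WT, by log2 0.67 (SE 0.113, limma adjusted p = 0.00859).

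Parp11 and Parp10 moved less and did not pass the threshold. Parp11 (ENSMUSG00000037997), which in human cells ADP-ribosylates an adaptor that controls breakdown of the interferon receptor, had 651, 608 and 632 in WT and 735, 891 and 766 in Samhd1 KO. The groups did not overlap, and the log2 fold change was 0.33 (95% interval 0.12 to 0.54, limma adjusted p = 0.0766); DESeq2 on the recovered reads, which called 8.7% of all genes, called it (adjusted p = 0.0281). Parp10 (ENSMUSG00000063268), a mono-ADP-ribosyltransferase found in human cells as a partner of MYC, had 1124, 901 and 1173 in WT and 1174, 1492 and 1295 in Samhd1 KO. The lowest Samhd1 KO library thus lay just above the highest WT library, and the log2 fold change was 0.31 (95% interval 0.04 to 0.58, limma adjusted p = 0.195).

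Among the other members Parp3 (ENSMUSG00000023249), a mono-ADP-ribosyltransferase of double-strand break repair, was lower in Samhd1 KO. It had 1118, 1122 and 1227 normalized reads in WT, and the Samhd1 KO libraries had 931, 932 and 849.6. The groups did not overlap, and the log2 fold change was -0.35 (SE 0.0842, limma adjusted p = 0.0376). Parp1 (ENSMUSG00000026496), the main maker of poly-ADP-ribose at strand breaks, had 1511, 1623 and 1533 in WT and 1320.3, 1755 and 1602 in Samhd1 KO, and its groups overlapped (log2 -0.01, 95% interval -0.24 to 0.23). Parp2 (ENSMUSG00000036023), its closest relative in repair, had 1094, 1044 and 1078 in WT and 914, 1035 and 1031 in Samhd1 KO. The Samhd1 KO libraries were all lower, by a log2 of -0.11 that was not called (95% interval -0.27 to 0.05, limma adjusted p = 0.445). Parp8 (ENSMUSG00000021725), whose function is little known, ran from 469.9 to 616 in WT and from 435 to 542 in Samhd1 KO, with overlap (log2 -0.06, 95% interval -0.58 to 0.45).

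The Parp3 call was lost without any 1 of the 3 WT or 3 Samhd1 KO libraries (log2 -0.38 to -0.31, limma adjusted p from 0.0640 to 0.150) or without Samhd1 Sting dKO replicate 1 (0.0528), and with labelled age (0.0561) or the cycling score (0.0823) as a covariate, and the Parp14 call without Samhd1 KO replicate 2, which left 3 of the 10 genes called. B cell, mast cell and macrophage marker sums were lower in every Samhd1 KO library than in every WT library. Taken singly, 5 of the 8 macrophage markers had a positive log2 fold change, with a median of 0.04. Limma called 0 of these 8, and DESeq2 called Lyz2. With a B cell score as a covariate Parp9 (log2 1.00) and Parp12 (0.89) were still called. Parp14 (0.94), Dtx3l (0.78) and Parp3 (-0.24) were not, and the part of mast cells and of macrophage markers was not tested.

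Samhd1 Sting dKO was compared with Samhd1 KO, where the genotype labels differ in Sting alone. Samhd1 reads differed as well and were called lower in Samhd1 Sting dKO (log2 -0.83, limma adjusted p = 0.0145). Of the 6 interferon-induced members, 5 were called lower by limma, where 2.89% of all genes tested were. The log2 fold changes of the 6 were all negative, with a median of -1.003, against 0.00 over all genes. In all 6, every Samhd1 Sting dKO library lay below every Samhd1 KO library, as in 12.9% of all genes. None of the other 4 members was called by limma, by edgeR (5.87% of all genes called) or by DESeq2 (9.87%), and 1 of them, Parp3, had an unadjusted limma p under 0.05, as 22.3% of all genes did. This comparison shares the Samhd1 KO libraries with the one before.

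Parp9 had 737, 758 and 719 normalized reads in Samhd1 Sting dKO, a narrow range well under the lowest Samhd1 KO library at 1411. It fell by log2 1.16 (limma log2 fold change -1.16, SE 0.128, adjusted p = 0.000600). Parp14 had 2500.2, 2766 and 3184 in Samhd1 Sting dKO, against at least 5568 in Samhd1 KO. The log2 fold change was -1.09 (SE 0.158, limma adjusted p = 0.00243). Dtx3l stood at 1216, 1196 and 1361 and Parp12 at 1131, 1124 and 1104, both without overlap with Samhd1 KO. Their log2 fold changes were -1.03 (SE 0.119) and -0.97 (SE 0.113), each with a limma adjusted p of 0.000731. The 3 Parp12 values were the tightest of any group for that gene, with an SD of 14.0. Parp11, at 639, 533 and 564, fell by a smaller amount, with a log2 fold change of -0.46 (SE 0.0964, limma adjusted p = 0.0169). Parp10, at 911, 1102 and 939, lay below every Samhd1 KO library but was not called (log2 -0.42, 95% interval -0.69 to -0.15, limma adjusted p = 0.0675; DESeq2 adjusted p = 0.0250).

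Of the other members, Parp3 had 1057, 1105 and 993 normalized reads in Samhd1 Sting dKO, all above the Samhd1 KO libraries, and was not called (log2 0.22, 95% interval 0.03 to 0.40, limma adjusted p = 0.152). Parp1 had 1533, 1455 and 1414, within its Samhd1 KO range (log2 -0.08, 95% interval -0.31 to 0.16). Parp2 had 1039, 1024 and 923 (log2 0.00, 95% interval -0.16 to 0.16), and Parp8 372, 415 and 549.8 (log2 -0.17, 95% interval -0.68 to 0.35); both overlapped Samhd1 KO.

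The 8 cycling genes summed to less in every Samhd1 Sting dKO library than in every Samhd1 KO library, and with the cycling score as a covariate Parp9, Parp12, Parp14 and Dtx3l were still called, with log2 fold changes from -1.38 to -1.09, and Parp11 was not (-0.45, limma adjusted p = 0.104). The Parp11 call was lost when replicate 2 of Samhd1 KO, or replicate 2 or 3 of Samhd1 Sting dKO, was left out (limma adjusted p = 0.0661, 0.0670 and 0.0502). All 8 B cell markers were called higher in Samhd1 Sting dKO than in Samhd1 KO, with a median log2 fold change of 2.57. Of the 6 mast cell markers 5 were tested, and 4 of these were called higher. With the B cell score as a covariate the log2 fold changes of the 6 interferon-induced members ran from -1.60 for Parp9 to -0.64 for Parp10. Only Parp12 was then still called (-1.50, limma adjusted p = 0.0406).

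Samhd1 Cardif dKO was set against Samhd1 KO, where the genotype labels differ in Cardif alone. Samhd1 reads were lower here too, without overlap but not called (log2 -0.85, limma adjusted p = 0.0850). All 6 interferon-induced members had every Samhd1 Cardif dKO library below every Samhd1 KO library, as 7.34% of all genes did, and their median log2 fold change was -0.64 against 0.00 over all genes. Only 1 of them, Dtx3l, was called by limma, in a comparison where 0.144% of all genes tested were called lower and none higher. Dtx3l had 1526, 1489 and 1699 normalized reads in Samhd1 Cardif dKO, against a lowest Samhd1 KO library of 2147. It was lower by log2 0.71 (limma log2 fold change -0.71, SE 0.119, adjusted p = 0.0480).

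Parp9 had 851, 993 and 1149 in Samhd1 Cardif dKO (log2 -0.73, 95% interval -1.01 to -0.45, limma adjusted p = 0.0560). Parp14 had 2810.4, 3580.0 and 4110.5 (log2 -0.79, 95% interval -1.13 to -0.44, limma adjusted p = 0.0918). Parp12 had 1209, 1658 and 1599.6 (log2 -0.58, 95% interval -0.82 to -0.33, limma adjusted p = 0.0850). For these 3 genes replicate 1, the male library with the highest cycling sum, was the lowest of the Samhd1 Cardif dKO group; the intervals lie below 0 although no adjusted p passed. DESeq2 called Parp9, Parp12, Parp14 and Dtx3l, where it called 1.63% of all genes in either direction. Parp11 had 578, 646 and 629 (log2 -0.36, limma adjusted p = 0.211) and Parp10 906, 1062 and 1032 (log2 -0.40, limma adjusted p = 0.327), both below Samhd1 KO without a call.

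The other members showed no call. Parp1 had 2007, 1684 and 1591, its highest group, with overlap (log2 0.18, 95% interval -0.06 to 0.41). Parp2 had 1114, 1083 and 1119.7, all above Samhd1 KO (log2 0.16, 95% interval -0.00 to 0.32, limma adjusted p = 0.581). Parp3 had 907, 1035 and 868 (log2 0.05, 95% interval -0.14 to 0.23), overlapping Samhd1 KO. Parp8 had 293, 319 and 585, a spread as wide as that between groups (log2 -0.38, 95% interval -0.89 to 0.13). The Dtx3l call was lost when any 1 of 10 of the 12 libraries was left out, and held without WT replicate 2 or Samhd1 KO replicate 3; over all 12 the log2 fold change ran from -0.84 to -0.58 and the limma adjusted p from 0.0295 to 0.176.

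**Figure D2:**
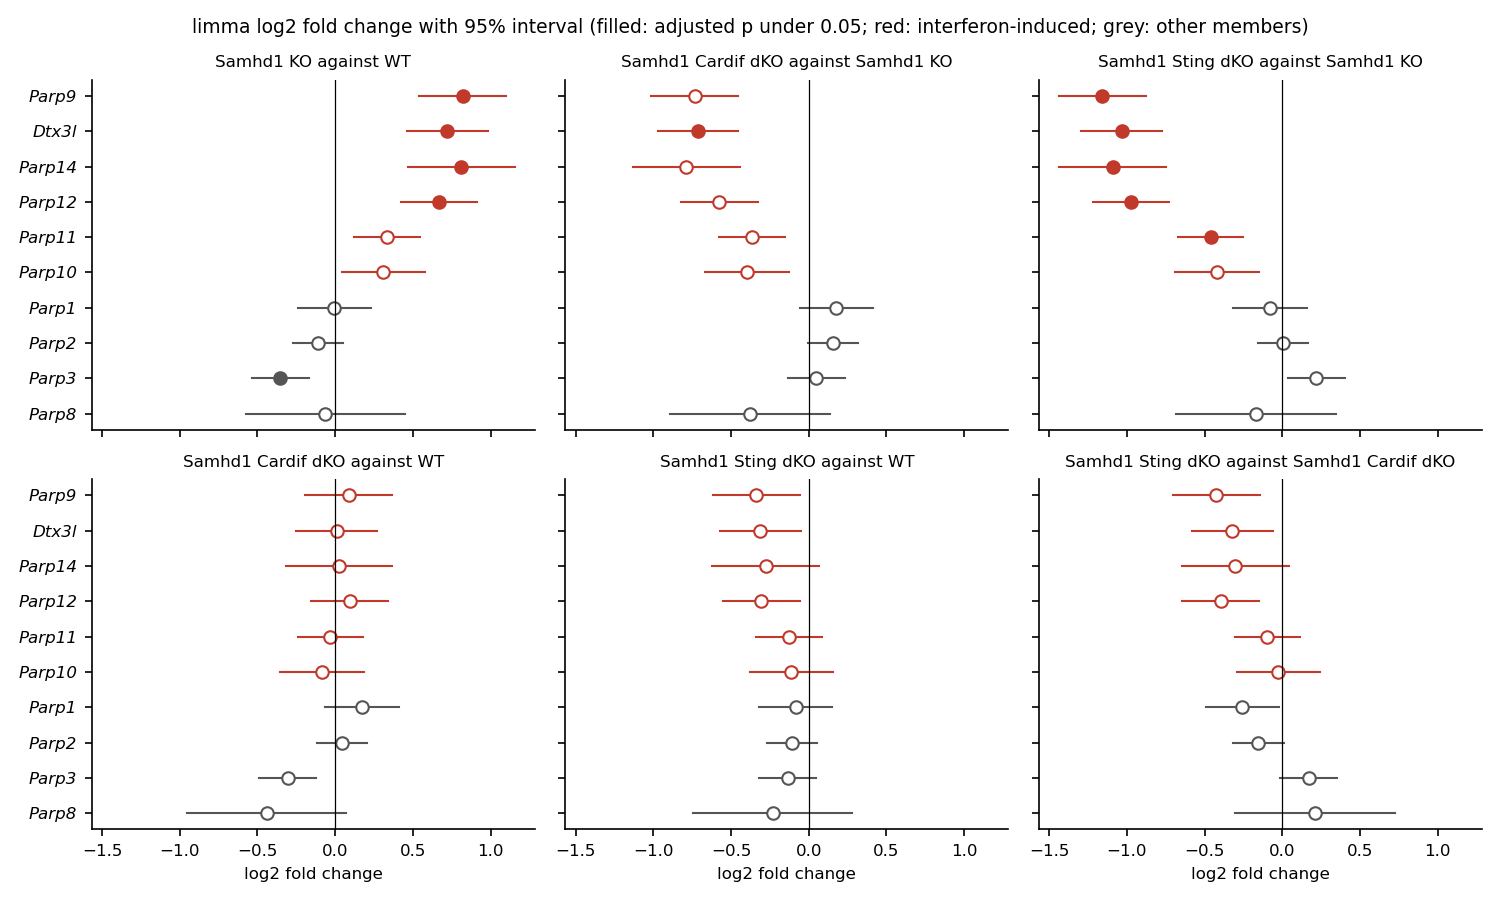
Limma log2 fold changes of the 10 genes in 6 comparisons, points with 95% intervals, filled where the adjusted p is under 0.05, red for interferon-induced and grey for other members. Filled points stand for 5 genes in Samhd1 KO against WT, 1 in Samhd1 Cardif dKO against Samhd1 KO and 5 in Samhd1 Sting dKO against Samhd1 KO, and there are none in the lower row.

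The double knockouts were then set against WT, sharing the WT libraries, and against each other. In Samhd1 Cardif dKO against WT, 0 of 10 genes were called by limma, where 1.06% of all genes tested were, and 0 by edgeR, which called 1.19%; 1 had an unadjusted p under 0.05, as 14.5% of all genes did, Parp3 (log2 -0.31, 95% interval -0.49 to -0.12), which DESeq2 called together with 3.81% of all genes. The 6 interferon-induced members overlapped WT in every case, with log2 fold changes from -0.09 for Parp10 to 0.09 for Parp9 and Parp12. The 95% intervals still reach from -0.32 to 0.37 for Parp14 and from -0.19 to 0.37 for Parp9.

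In Samhd1 Sting dKO against WT, none of the 10 (0) passed in limma, edgeR or DESeq2, which called 6.5%, 6.63% and 10.9% of all genes. All 10 fold changes were negative, and 3 had an unadjusted p under 0.05, as 22.4% of all genes did: Parp9 (log2 -0.34, 95% interval -0.62 to -0.06), Dtx3l (-0.31, -0.57 to -0.05) and Parp12 (-0.30, -0.55 to -0.06). For these 3 and for Parp2 and Parp3 every Samhd1 Sting dKO library lay below every WT library, 5 of 10 genes where 13.9% of all genes did so. Without Samhd1 Cardif dKO replicate 1 in the fit, 1 of the 10, Parp12, was called.

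In Samhd1 Sting dKO against Samhd1 Cardif dKO, again 0 of 10 were called by limma, where 0.28% of all genes were, and 0 by edgeR, which called 0.317%. Unadjusted p was under 0.05 for 4 of the 10, and for 15.7% of all genes: Parp9 (log2 -0.42, 95% interval -0.70 to -0.14), Parp12 (-0.40, -0.64 to -0.15), Dtx3l (-0.32, -0.58 to -0.06) and Parp1 (-0.26, -0.49 to -0.02). Of these DESeq2, which called 3.8% of all genes, called Parp12. In the authors' deposited table of this comparison, the adjusted p was 0.258 for Parp12 and 0.409 for Parp9, and 0 of the 10 genes stood among the 155 that the authors list at a false discovery rate of 10%.

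The Parp14, Dtx3l and Parp9 genes follow each other on chromosome 16, and their levels kept a nearly fixed ratio. Such closeness was not particular to neighbouring genes, as the likeness of Parp12, on chromosome 6, shows below. The log2 ratio of Parp9 to Dtx3l was -0.74 ± 0.05 (SD, n = 3) in WT and -0.64 ± 0.03 in Samhd1 KO, and in the double knockouts -0.66 ± 0.16 (Cardif) and -0.77 ± 0.14 (Sting). Over all 12 libraries its SD was 0.11, that of Parp14 to Dtx3l 0.16 and that of Parp14 to Parp9 0.15, each smaller than the fold changes called above. In GENCODE M21 on GRCm38 the exons of Parp9 and Dtx3l overlap on opposite strands by 458 bases, which is 9.40% of the Parp9 and 8.0% of the Dtx3l exon bases. The libraries are strand-specific, but no source used here says whether the authors' counting used strand, so a part of the reads may be shared between the pair.

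The genes on both sides had smaller fold changes than the cluster in the 3 comparisons drawn below. In RefSeq order Slc49a4 (Dirc2 in the table) and Hspbap1 lie on one side and Kpna1, an importin of nuclear transport, and Wdr5b on the other. In Samhd1 KO against WT their log2 fold changes were -0.03, 0.03, 0.18 and 0.01, and none was called in any of the 6 comparisons. In Samhd1 Sting dKO against Samhd1 KO they were 0.06, 0.34, 0.19 and 0.15, opposite in sign to those of the 3 cluster genes. Hspbap1, the largest of these, had 136, 124.9 and 119.7 normalized reads in Samhd1 KO and 163, 174 and 147 in Samhd1 Sting dKO (limma adjusted p = 0.134).

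**Figure D3:**
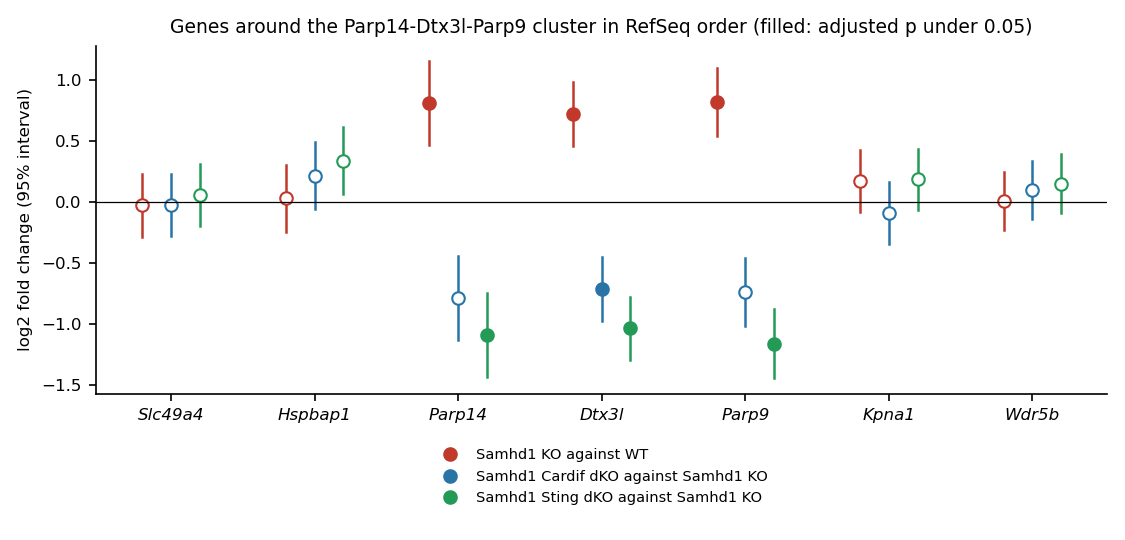
Limma log2 fold changes with 95% intervals for 7 genes in RefSeq order along chromosome 16, in Samhd1 KO against WT (red), Samhd1 Cardif dKO against Samhd1 KO (blue) and Samhd1 Sting dKO against Samhd1 KO (green), filled where the adjusted p is under 0.05. The 3 genes in the middle lie far from 0 in each comparison, and all points of the 4 outer genes are open and lie between -0.08 and 0.34.

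Likeness between genes was measured as the root mean square difference of log2 levels, each centred on its own mean over the 12 libraries. By this measure the gene closest to Parp9 among 10102 genes was Dtx3l (0.102), and the gene closest to Dtx3l was Parp9. Parp12 (0.122) ranked 3 and Parp14 (0.140) ranked 5 for Parp9, and rank 2 was held by a gene that carries only a clone identifier. Parp12, which lies on chromosome 6, was also closer to Parp14 (0.136) than Parp9 (0.140) or Dtx3l (0.151) was. Parp10 and Parp11 stood closer to each other (0.134) than to Parp9 (0.291 and 0.277), yet Parp11 ranked only 21 for Parp10 and Parp10 only 77 for Parp11. The measure is not scaled by how much a gene varies, so genes that vary little lie close together. Candidates outside the 10 members were 9151 genes with a gene name, rather than only a clone or gene model identifier. Of these, Slfn8 (0.137), Ly6e (0.149) and Mnda (0.155) were most like Parp9. Gbp7 (0.118), Slfn8 (0.145) and Trim30a (0.146) were most like Dtx3l, and Oas1b (0.116), Slfn8 (0.118) and Ddx58 (0.136) most like Parp14. Parp1 was most like Sf3b2 (0.0618), Gpi1 (0.0640) and Anapc11 (0.0641). These ranks describe the same 12 libraries and carry no test.

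Parp1 levels followed the genes of cycling cells. The cycling score, the mean log2 level of 8 such genes, ran from 6.27 in Samhd1 Sting dKO replicate 3, where Parp1 had 1414 normalized reads, to 10.9 in Samhd1 Cardif dKO replicate 1, where it had 2007. Over the 12 libraries Pearson's r was 0.79 and Spearman's rho 0.82, r was 0.65 without the 2 libraries farthest from the median score, and r was 0.79 after centring on genotype. The relation was computed for each of the 10 genes and is given as a description. Parp2 had an r of 0.49, which was 0.11 without those 2 libraries, and Parp3 an r of -0.58. Parp14 had an r of 0.21 over all libraries and -0.72 after centring on genotype, and Parp12 0.36 and -0.59. With the cycling score as a covariate Parp14 was called in Samhd1 KO against WT (log2 0.97) and in both double knockouts against Samhd1 KO (-0.74 for Samhd1 Cardif dKO and -1.38 for Samhd1 Sting dKO).

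**Figure D4:**
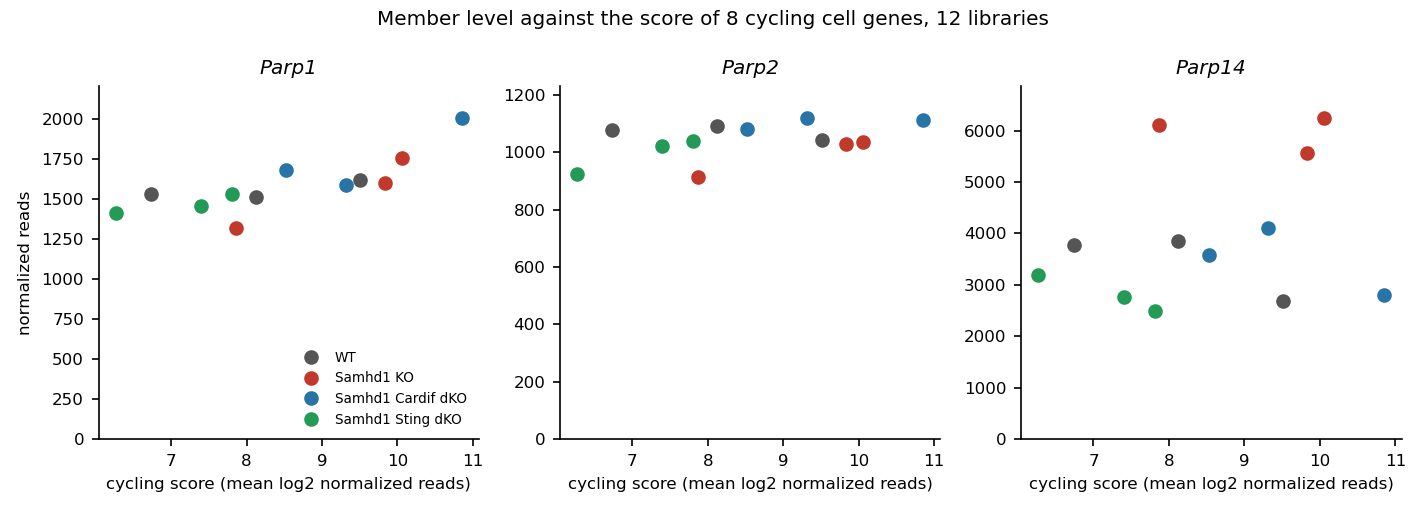
Normalized reads of Parp1, Parp2 and Parp14 (vertical axes from 0) against the cycling score, the mean log2 normalized reads of 8 genes, for 12 libraries coloured by genotype. Parp1 is highest in the library with the highest score and lowest in a Samhd1 KO library with a score of 7.87, while the 3 Samhd1 KO libraries stand above the rest for Parp14 at any score.

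Related genes were followed as lists. Of the 7 other PARP enzymes tested, 1 was called by limma: Zc3hav1, the antiviral zinc finger protein PARP13, which lacks catalytic activity. Limma called 2.71% of all genes higher in Samhd1 KO against WT and 2.89% lower in Samhd1 Sting dKO against Samhd1 KO. In each of these comparisons 3 of the 7 had an unadjusted p under 0.05. Over all genes 2487 of 13231 did so in the first and 22.3% in the second. Zc3hav1 had 2429, 2550.0 and 2607 normalized reads in WT, 3416, 3021 and 2892 in Samhd1 KO, and 2203, 2440.1 and 2186 in Samhd1 Sting dKO. It rose in Samhd1 KO against WT (log2 0.30, SE 0.0753, limma adjusted p = 0.0490), a call that DESeq2 also made and edgeR did not. Between Samhd1 KO and Samhd1 Sting dKO it fell (log2 fold change -0.45, SE 0.0753, limma adjusted p = 0.00531). Parp4, Parp6, Parp16, Tiparp, Tnks and Tnks2 were not called by limma or edgeR in any of the 6 comparisons; DESeq2 called Parp4 in Samhd1 KO against WT and Tiparp in Samhd1 Sting dKO against WT.

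Of 9 genes that remove ADP-ribose, such as Parg, 8 were tested and 0 were called by limma in any of the 6 comparisons, with 0 to 2 at an unadjusted p under 0.05. The same held for the 4 Deltex ligases other than Dtx3l (1 to 2 at an unadjusted p under 0.05) and for 7 repair partners of PARP1 and PARP2, Xrcc1 and Lig3 among them (0 to 3). Over all genes tested, limma called from 0.144% to 6.5% in the 6 comparisons, and unadjusted p was under 0.05 for 8.98% to 22.4%. At such shares, 0 calls in lists this short do not show that their genes were unchanged. In these 3 lists edgeR called 0, and DESeq2 called Dtx1 in Samhd1 Sting dKO against Samhd1 KO and Enpp1 in Samhd1 Sting dKO against WT. Of 12 genes of NAD supply and use, 9 were tested, and Nampt, the rate-limiting enzyme of NAD salvage, fell between Samhd1 KO and Samhd1 Sting dKO. It had 2693, 2741 and 1963 in Samhd1 KO and 1486, 1509.7 and 1448 in Samhd1 Sting dKO, without overlap (log2 -0.72, SE 0.129, limma adjusted p = 0.00762). DESeq2 also called Nampt in Samhd1 KO against WT (limma log2 0.48, adjusted p = 0.0578) and in Samhd1 Cardif dKO against Samhd1 KO (-0.49, 0.203), which limma and edgeR did not.

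Of 10 genes of interferon signalling from receptor to response element, 1 was called higher by limma in Samhd1 KO against WT, where 2.71% of all genes were: Stat2, a subunit of the complex at the ISRE. The receptor and kinase genes Ifnar1, Ifnar2, Ifngr1, Ifngr2, Jak1, Jak2 and Tyk2 were not called there. The WT libraries had 1956, 1212 and 1937 for Stat2, and those of Samhd1 KO 2801, 3947 and 2713. As for Parp9 and Dtx3l, Samhd1 KO replicate 2 was the highest library, and the groups did not overlap. Its log2 fold change in Samhd1 KO against WT was 0.90 (limma adjusted p = 0.0410), a call that was lost when any 1 of 10 of the 12 libraries was left out and held without Samhd1 Cardif dKO replicate 1 or 3. In Samhd1 Cardif dKO against Samhd1 KO, 0 of the 10 were called by limma, with 4 at an unadjusted p under 0.05 (8.98% of all genes), 0 by edgeR and 1, Stat2, by DESeq2. In Samhd1 Sting dKO against Samhd1 KO, Stat2 (log2 -1.44) and Irf9 (-0.68) were called lower, with limma adjusted p values of 0.00319 and 0.00971. Irf1, an interferon-induced transcription factor named after its values were seen, had 2252, 1921 and 2613 in WT and 3153, 9717 and 3483 in Samhd1 KO. Its log2 fold change of 1.08 was the highest of the list and was not called by limma (adjusted p = 0.0946) or edgeR, but was called by DESeq2. In Samhd1 Sting dKO against Samhd1 KO it was -1.16, called by edgeR and DESeq2 and not by limma (adjusted p = 0.0644). Against WT, Ifnar2, a receptor subunit, was lower in Samhd1 Sting dKO (log2 -0.27, limma adjusted p = 0.0380), a call lost without any 1 of WT replicates 1 and 3, Samhd1 KO replicate 3, Samhd1 Cardif dKO replicate 2 and Samhd1 Sting dKO replicates 2 and 3.

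**Figure D5:**
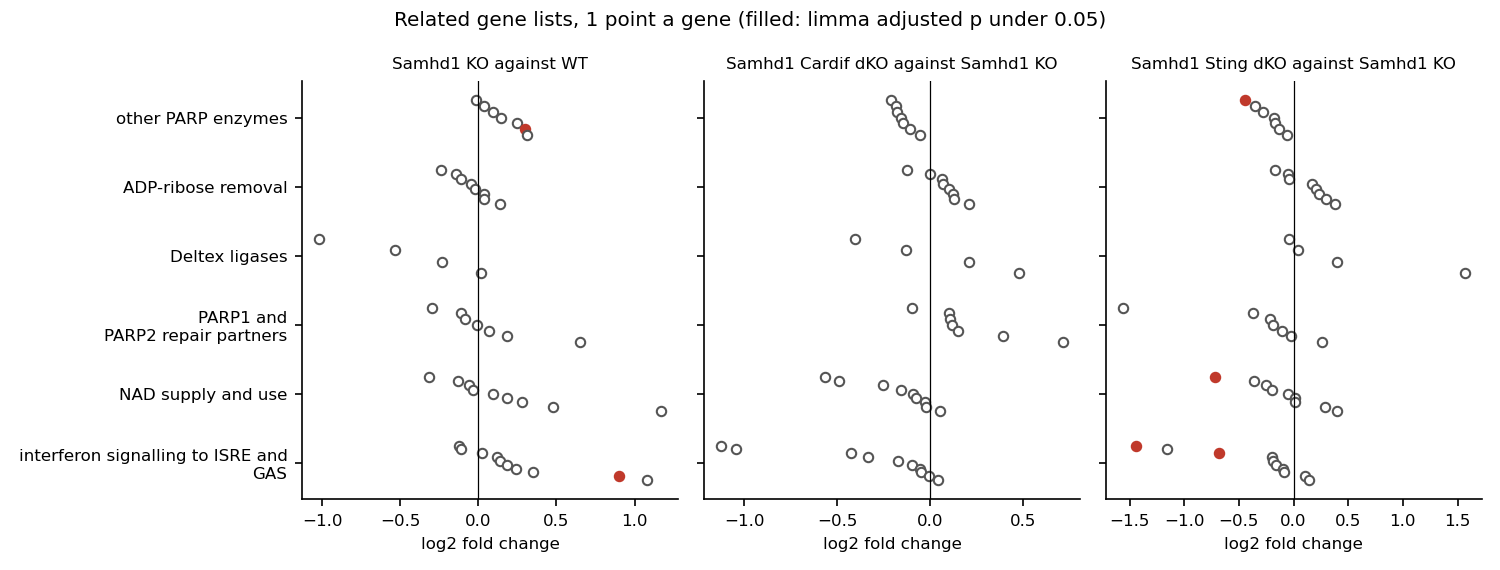
Limma log2 fold changes of 6 lists of related genes in 3 comparisons, 1 point a gene, spread vertically only to separate them, and filled red where the adjusted p is under 0.05. Filled points are 1 other PARP enzyme (Zc3hav1), 1 gene of NAD supply (Nampt) and Stat2 and Irf9, and there are none for ADP-ribose removal, Deltex ligases or repair partners.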

How the data were processed

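The deposited signal is a normalized read count: the authors scaled each library by 1 size factor, according to the text on the whole series. The genes are those of Ensembl 61 on mm9. Tools named in the submitters' processing notes are DESeq 1.6.1 and bedtools 2.16.2; an aligner is not named there. In each library 100.0% of values fell on whole reads within 0.0001, so reads were recovered; for Samhd1 Cardif dKO replicate 2 the step is too close to 1 to tell this from rounding. The deposited fold, log2 and p-value columns are the authors' own comparison of the double knockouts and serve only where the text names the authors' deposited table.

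The 13231 genes that reached 10 normalized reads in 3 or more libraries were tested with limma 3.58.1 under R 4.3.3 (trended prior, 1 mean per group, 12 libraries, 8 residual degrees of freedom) on log2(normalized reads + 1), which understates changes of low genes, and adjusted by Benjamini-Hochberg over all genes within each of 6 contrasts, calling at 0.05. Log2 fold changes had a median SE of 0.135. Alternatives were edgeR 4.0.16, DESeq2 1.42.0 and limma-voom on recovered reads, other filters, pseudocounts of 0.5 and 5, TMM scaling, only the groups compared, a replicate block, covariates, and leaving out each of 12 libraries. The fit was tested on simulated data.

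All 10 members are named, with called genes of each list and the 3 genes most like each of 4 members. The members and lists were chosen with earlier results of these data known. The plan named neighbours by coordinates of the deposited table; it holds none, so RefSeq order on GRCm38.p6 was used, which differs from mm9, and 5 list genes were matched by identifier under an older symbol. Promoter sequences are RefSeq's. Protein sequences were not used here. A gene of the interferon signalling list is not reported here.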

Additional observations from a re-analysis of the deposited data

How the results depend on the processing

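Under 27 alternatives, 12 of which leave out 1 library, no called member changed sign. In Samhd1 KO against WT the 5 called members became 2 with the B cell score as a covariate, 4 with labelled age or the cycling score (Parp3 lost in both) and 3 to 5 when 1 library was left out (3 without Samhd1 KO replicate 2). DESeq2 gave 6 there, with Parp11 gained. In Samhd1 Sting dKO against Samhd1 KO the 5 became 1 with the B cell score and 4 to 5 without 1 library. They became 4 with the cycling score or only the groups compared (Parp11 lost in both), and 6 with DESeq2 (Parp10 gained). In Samhd1 Cardif dKO against Samhd1 KO the 1 called member became 4 with DESeq2 or the cycling score as a covariate, 2 with the B cell score (Parp9 and Parp12, with Dtx3l lost), and 0 with a filter of at least 5 CPM, TMM scaling, only the groups compared, the replicate block, sex or labelled age; leaving out 1 library gave 0 to 2. The 0 called became 1 with DESeq2 for Samhd1 Cardif dKO against WT and for both double knockouts against each other, and 1 for Samhd1 Sting dKO against WT with sex as a covariate; there leaving out 1 library gave 0 to 1. The cause of these moves was not tested. In all, 39 fold changes of single members lost a call and 16 gained one.

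The replicate numbers did not pair the libraries: of 18 same-numbered pairs, correlations of deviations from group means ran from -0.43 to 0.37, 7 were over 0.1, and 3 of 12 libraries correlated best with their own number. The replicate block gave 5, 0, 5, 0, 0 and 0 called members in the 6 comparisons. Age and sex are not balanced over genotypes.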
